A study of Homo sapiens with 6 samples.

Results

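The proteasome genes of U2OS osteosarcoma cells were compared between clones lacking MBTD1 and control clones. The set holds every row of the non-normalized table whose symbol begins with PSMA, PSMB, PSMC or PSMD followed by a digit, without PSMB8 and PSMB9, which is 38 of 34602 gene rows. Of these, 34 lay above background on at least 3 of the 6 arrays and were tested among 13145 genes. Among the 34 is PSMC3IP, taken by its symbol only, a partner of the meiotic recombinases that is no part of the proteasome, so 33 tested rows encode subunits or assembly chaperones. Expression was measured in total RNA from 3 clones with CRISPR/Cas9 knockout of MBTD1 and 3 control clones, 1 Illumina bead array per clone. All cells were U2OS, a human osteosarcoma line, untreated and grown in serum-containing medium. MBTD1 reads methylated histone tails within the TIP60/NuA4 acetyltransferase complex. The controls are titled "control KO", yet the stated design compares the knockout clones with wild-type cells, so how the controls were derived is unclear. No label gives the guides, the edited alleles or whether control clones came from separate cultures, and p-values then measure only the spread between these arrays.

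The proteasome degrades proteins that carry ubiquitin chains. Its core particle is a barrel of alpha subunits (PSMA genes), which form the outer rings and gate the entry, and beta subunits (PSMB genes), which form the inner rings and carry the proteolytic sites. The regulatory particle sits on the barrel: a ring of ATPases (PSMC genes) unfolds the substrate and threads it in, and non-ATPase subunits (PSMD genes) bind and remove ubiquitin. The transcription factor NFE2L1 raises many of their genes together when proteasome activity is short.

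Across the 6 arrays the median intensity was 84.7 to 87.2, and 12982 to 13511 gene rows per array lay above background. The mean intensity was 158 to 164 in controls and 180 to 188 in knockout clones, a gap that quantile normalization removes. Values below are quantile-normalized log2 intensities after background correction unless raw intensities are named, and differences are knockout minus control. The MBTD1 row measured 5.06, 5.05 and 5.05 in controls 1 to 3 and 5.17, 4.99 and 4.62 in knockouts 1 to 3 (limma adjusted p = 0.676). This row averages several probes, whose positions relative to the edit are unknown, so it does not check the labels. Among lineage genes, VIM, SPARC and COL1A1 of mesenchymal cells lay above background on 6 arrays, and PTPRC of blood cells and PECAM1 of endothelium on 0. The epithelial gene EPCAM did so on 6 at 4.61 to 5.25, and the osteoblast factor RUNX2 on 1 at 4.62 to 5.26. The rows of RUNX2 and PTPRC average several probes, so their detection p is a poor guide to whether these genes are expressed.

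Most proteasome genes measured lower in knockout clones, but 0 of the 34 tested members passed limma's test at an adjusted p of 0.05, against 1.57% of all tested genes (1.2% higher and 0.373% lower). The difference was negative in 26 members and positive in 8, with a median of -0.25, while it was negative in 53.8% of all tested genes, with a median of -0.023. At an unadjusted p under 0.05 there were 17 members, against 20.4% of all tested genes: 14 were lower, against 10.3%, and 3 higher, against 10.1%. The groups did not overlap in 18 members, against 25.9% of all tested genes, with the knockout clones below the controls in 14 (13.7%) and above them in 4 (12.2%). The smallest adjusted p among members was 0.0522, for PSMC1. The mean number of beads per value was 8 to 37, and the standard error of the difference lay between 0.11 and 0.23. Rows of 13 of the 38 members average several probes, and whether these probes agree is not shown. They are PSMA1, PSMA3, PSMA4, PSMA6, PSMC1, PSMC4, PSMC6, PSMD4, PSMD6, PSMD10, PSMD12, PSMD13 and PSMC3IP.

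**Figure D1:**
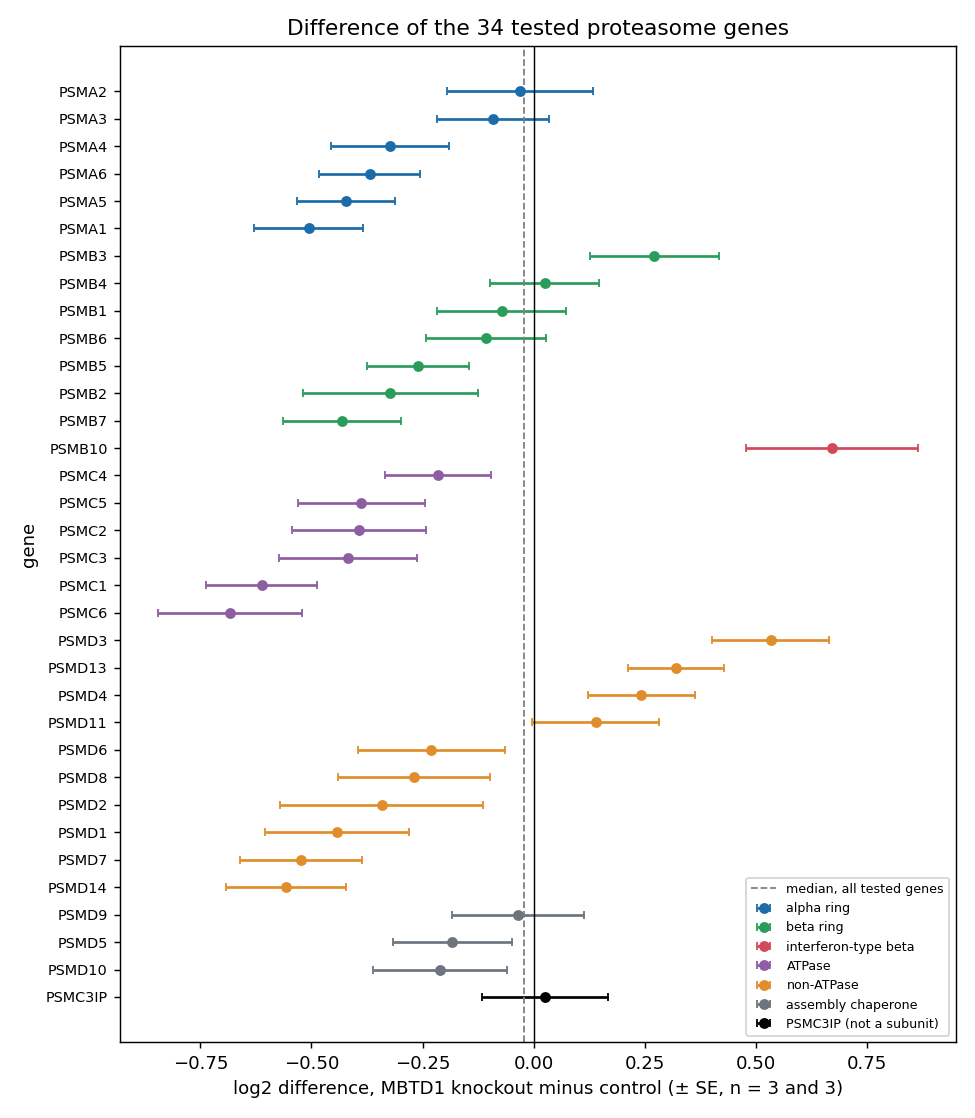
The log2 difference, knockout minus control, is plotted for each of the 34 tested genes (points, bars ± SE, n = 3 and 3), grouped and coloured by role, with the median of all 13145 tested genes as a dashed line. The 6 ATPases and the 6 tested alpha subunits all sit left of 0, from -0.68 to -0.03, while PSMB10 at 0.67 and PSMD3 at 0.53 sit farthest right.

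Of the 6 ATPases 0 passed, while 6 of 6 were negative, with a median difference of -0.41, and in 5 the knockout clones lay wholly below the controls (13.7% of all tested genes). The median was -0.17 after scaling to a common median and -0.27 with cyclic loess. PSMC1 measured 10.59, 10.95 and 10.73 in controls 1 to 3 and 10.13, 10.14 and 10.16 in knockouts 1 to 3. The knockout clones had an SD of 0.02 and all lay below the lowest control. The difference was -0.61 with a standard error of 0.13, 1.53-fold lower (95% interval -0.90 to -0.33; limma adjusted p = 0.0522). PSMC6, which had the largest negative difference of all members, measured 9.24, 9.72 and 9.40 in controls and 8.93, 8.54 and 8.83 in knockouts. It was 1.61-fold lower, with a difference of -0.68 and a standard error of 0.16 (limma adjusted p = 0.0670), and control 1 lay 0.49 below control 2. PSMC4, the ATPase with the smallest difference, measured 6.95, 6.92 and 7.05 in controls and 6.89, 6.60 and 6.79 in knockouts. Its groups were separated by a narrow margin, with a difference of -0.21 (limma adjusted p = 0.354). PSMC2, PSMC3 and PSMC5 differed by -0.39, -0.42 and -0.39. Single knockout clones stood apart in PSMC3, where knockout 2 measured 9.57 beside 10.00 and 10.13, and in PSMC5, where knockout 3 measured 10.01 beside 10.45 and 10.43. Without control 1, PSMC1 (limma adjusted p = 0.0332) and PSMC6 (limma adjusted p = 0.0475) passed, but over all 16 alternatives the limma adjusted p reached 0.353 for PSMC1 and 0.216 for PSMC6. Scaling to a common median took the difference of PSMC1 to -0.27, and the default background fit took that of PSMC6 to -1.09 and that of PSMC4 to -0.050.

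**Figure D2:**
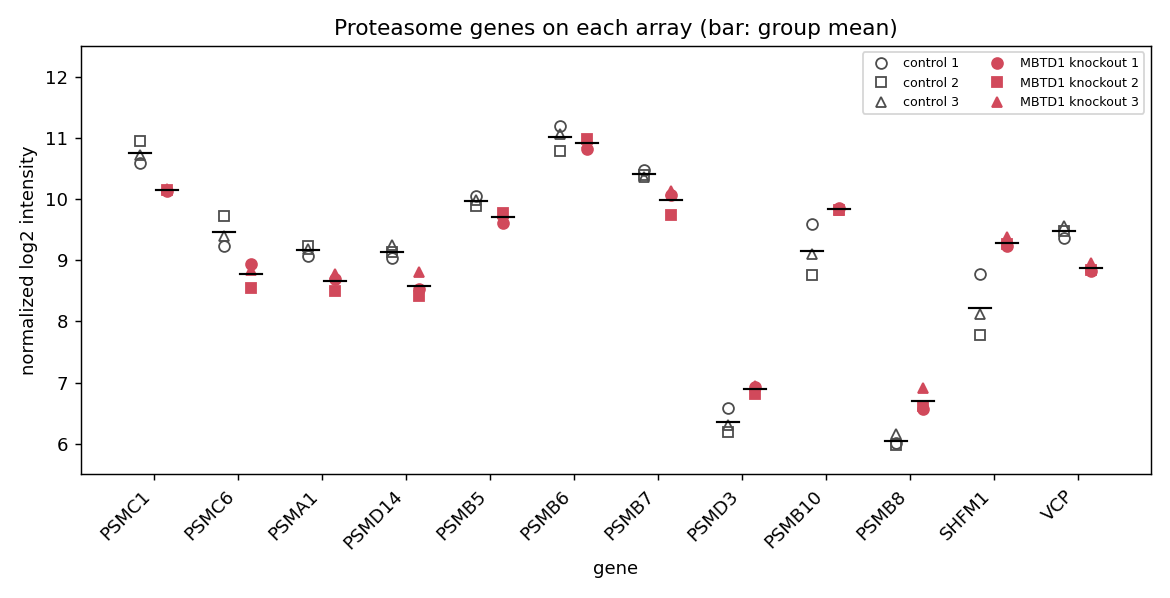
Normalized log2 intensity of 12 genes is shown on each array (open grey symbols, control clones 1 to 3; filled red symbols, knockout clones 1 to 3; black bars, group means). PSMC1, PSMC6, PSMA1, PSMD14, PSMB5, PSMB7 and VCP lie lower in all 3 knockout clones, PSMB6 overlaps, and PSMD3, PSMB10, PSMB8 and SHFM1 lie higher. Control 1 is the control nearest to the knockout clones in PSMD3, PSMB10 and SHFM1, and also in PSMC1, PSMC6, PSMA1, PSMD14 and VCP.

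Of the 6 tested alpha subunits 0 passed, while 6 of 6 were negative, with a median difference of -0.35, and in 4 the knockout clones lay wholly below the controls (13.7% of all tested genes). The median was -0.070 after scaling to a common median and -0.20 with cyclic loess. PSMA1 measured 9.07, 9.23 and 9.18 in controls and 8.69, 8.49 and 8.78 in knockouts. All knockout values lay below all controls, by -0.51 on average with a standard error of 0.12, 1.42-fold lower (limma adjusted p = 0.0696), and by -0.33 after scaling to a common median. PSMA5, PSMA6 and PSMA4 were also separated, with differences of -0.42, -0.37 and -0.32 (limma adjusted p = 0.0843, 0.121 and 0.218). PSMA3 and PSMA2 overlapped. PSMA2 measured 6.56, 7.07 and 6.52 in controls and 6.70, 6.78 and 6.56 in knockouts, so control 2 alone stood high. The difference was -0.03 (95% interval -0.40 to 0.34; limma adjusted p = 0.940).

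The 7 constitutive beta subunits were less uniform, with a median of -0.11, 5 negative and 2 positive. Of the catalytic subunits, PSMB7, which carries the trypsin-like site, measured 10.47, 10.39 and 10.36 in controls and 10.06, 9.73 and 10.14 in knockouts. The groups did not overlap, and knockout 2 was the lowest; the difference was -0.43 with a standard error of 0.13 (limma adjusted p = 0.123). PSMB5, the chymotrypsin-like subunit and main target of proteasome inhibitor drugs, measured 10.05, 9.88 and 9.99 in controls and 9.60, 9.77 and 9.76 in knockouts. These values were also separated, by -0.26 (standard error 0.11; limma adjusted p = 0.242). After scaling to a common median PSMB7 differed by -0.13 and PSMB5 by -0.029, and with cyclic loess by -0.28 and -0.15. PSMB6, the caspase-like subunit, measured 11.19, 10.78 and 11.07 in controls and 10.82, 10.98 and 10.92 in knockouts. The knockout values fell inside the control range, with a difference of -0.11 (95% interval -0.41 to 0.20; limma adjusted p = 0.707), which turned positive after scaling to a common median (0.28) and with cyclic loess (0.095). Among the structural beta subunits PSMB3 had the highest difference. It measured 11.20, 10.67 and 10.94 in controls and 11.20, 11.18 and 11.24 in knockouts, so control 1 equalled the knockout level (difference 0.27, limma adjusted p = 0.334), and the difference ran from 0.14 without control 2 to 0.66 after scaling to a common median. PSMB2, PSMB1 and PSMB4 differed by -0.32, -0.07 and 0.02 with overlapping groups. The beta ring median was positive in 2 of the 17 settings, at 0.25 after scaling to a common median and 0.095 with cyclic loess.

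PSMB10 had the highest difference of all members. It encodes the interferon-induced subunit that takes the place of PSMB7 in the immunoproteasome. It measured 9.60, 8.77 and 9.11 in controls and 9.85, 9.82 and 9.82 in knockouts. The knockout clones, with an SD of 0.02, lay above all controls. The controls had an SD of 0.42 and spanned 0.83, with control 1 close to the knockout level. The difference was 0.67 with a standard error of 0.19, 1.59-fold higher (limma adjusted p = 0.105). It passed after scaling to a common median (limma adjusted p = 0.0367) and without control 1 (limma adjusted p = 0.0194), and over all alternatives the limma adjusted p reached 0.283. The other interferon-induced catalytic subunits, which are no members of the set, lay higher too. PSMB8, whose row averages several probes, measured 6.01, 5.98 and 6.17 in controls and 6.56, 6.62 and 6.90 in knockouts (limma adjusted p = 0.0520). Its control 1 was only 0.03 above control 2. PSMB8 was 1.56-fold higher and passed in 4 of 16 alternatives, but its difference of 0.64 was 0.36 with the authors' deposited log2 values and 0.10 with the default background fit. PSMB9 measured 4.33, 4.35 and 4.52 in controls and 4.91, 4.89 and 5.07 in knockouts, but its averaged row passed the detection filter in 0 control and 2 knockout clones and was not tested. With a filter on signal instead, PSMB9 differed by 0.55 (limma adjusted p = 0.0519).

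Among the 10 tested non-ATPase subunits 0 passed, and the median was -0.25, with 6 negative and 4 positive. The groups did not overlap in 3 lower (13.7% of all tested genes) and 3 higher genes (12.2%). After scaling to a common median the median was -0.12, and with cyclic loess it was -0.18. PSMD14, the deubiquitinase that strips ubiquitin from substrates, measured 9.04, 9.13 and 9.24 in controls and 8.53, 8.41 and 8.80 in knockouts. The groups were separated by -0.56 with a standard error of 0.14, 1.47-fold lower (limma adjusted p = 0.0710). PSMD7, the subunit that pairs with PSMD14, measured 8.79, 9.17 and 8.93 in controls and 8.29, 8.50 and 8.54 in knockouts. It too was lower in every knockout clone, by -0.52 (limma adjusted p = 0.0852). PSMD1, a large scaffold of the base, differed by -0.44, and PSMD2, PSMD8 and PSMD6 by -0.34, -0.27 and -0.23 with overlapping groups. The knockout clones of PSMD2 were spread from 8.25 to 9.22, with knockout 1 lowest.

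PSMD3, a subunit of the lid, measured 6.59, 6.20 and 6.31 in controls and 6.93, 6.82 and 6.95 in knockouts. All knockout values exceeded all controls, and control 1 was the nearest to them, 0.39 above control 2. The difference was 0.53 with a standard error of 0.13, 1.45-fold higher (limma adjusted p = 0.0732), and it passed after scaling to a common median (limma adjusted p = 0.0453) and without control 1 (limma adjusted p = 0.0368). The difference was 0.32 with the authors' deposited log2 values and 0.10 with the default background fit, and the limma adjusted p reached 0.241 over all alternatives. PSMD13 and PSMD4, a ubiquitin receptor, were also separated, with differences of 0.32 and 0.24 (limma adjusted p = 0.148 and 0.297), and PSMD11 overlapped at 0.14. PSMD13, which had the lowest control mean of the tested members, measured 4.67, 4.77 and 4.67 in controls and 5.03, 4.95 and 5.09 in knockouts. Its raw intensities were only 90.6 to 102, and its difference ran from 0.016 to 0.36 over the 17 settings.

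The chaperones that assemble the ATPase ring, PSMD5, PSMD9 and PSMD10, overlapped between groups, with differences of -0.18, -0.03 and -0.21. PSMD10, also known as gankyrin, measured 7.02, 7.47 and 7.28 in controls and 7.19, 6.85 and 7.09 in knockouts (limma adjusted p = 0.478). PSMD9 measured 5.04, 5.06 and 4.88 in controls and 4.67, 5.15 and 5.06 in knockouts (limma adjusted p = 0.924), and knockout 1 alone was low. PSMC3IP differed by 0.03 (limma adjusted p = 0.942).

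The 4 members left out of the test differ in kind. PSMA8, an alpha subunit of the testis, and PSMB11, a beta subunit of the thymus, lay above background on 0 arrays, at raw intensities of 75.4 to 84.8 and 81.1 to 84.6. PSMA7, an alpha subunit that every proteasome holds, reached only 83.3 to 90.3 and was above background in 1 control and 1 knockout clone. Its row is described as transcript variant 2, so the value says little about the whole gene. PSMD12, a lid subunit, was bright on every array, with raw intensities of 806, 928 and 803 in controls and 1046, 911 and 902 in knockouts. Its detection p nevertheless reached 0.525, because the row averages several probes, as its fractional bead numbers show. Tested with a filter on signal instead, PSMD12 differed by -0.05 (limma adjusted p = 0.830). Of 663 rows that were bright and left out in this way, 663 were averages of several probes.

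The start regions of the 2 members with the smallest p, PSMC1 and PSMC6, and of the 2 higher members with the smallest p, PSMD3 and PSMB10, are shown because they differed in opposite directions. Each is 300 bases long, 250 before and 50 after the annotated start, from RefSeq (GRCh38.p14), read along the gene's strand. They lie at chr14:90256303-90256602 (PSMC1, plus strand), chr14:52706950-52707249 (PSMC6, plus strand), chr17:39980557-39980856 (PSMD3, plus strand) and chr16:67936801-67937100 (PSMB10, minus strand). Capitals mark matches on either strand to TGACNNNGC, the core of the antioxidant response element that NFE2L1 and NFE2L2 bind, to GAAA followed by any 2 bases and GAAA again, the core of the interferon-stimulated response element (ISRE), and to CCAAT.
PSMC1: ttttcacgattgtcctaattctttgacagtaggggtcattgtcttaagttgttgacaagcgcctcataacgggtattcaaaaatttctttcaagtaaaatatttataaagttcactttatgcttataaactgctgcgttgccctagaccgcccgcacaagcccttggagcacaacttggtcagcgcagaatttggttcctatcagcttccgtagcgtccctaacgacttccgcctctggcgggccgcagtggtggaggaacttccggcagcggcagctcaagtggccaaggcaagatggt
PSMC6: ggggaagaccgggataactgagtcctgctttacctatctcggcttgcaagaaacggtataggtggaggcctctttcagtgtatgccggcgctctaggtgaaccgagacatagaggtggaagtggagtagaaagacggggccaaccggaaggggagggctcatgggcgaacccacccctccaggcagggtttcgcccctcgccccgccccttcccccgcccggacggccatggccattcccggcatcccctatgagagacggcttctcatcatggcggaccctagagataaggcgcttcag
PSMD3: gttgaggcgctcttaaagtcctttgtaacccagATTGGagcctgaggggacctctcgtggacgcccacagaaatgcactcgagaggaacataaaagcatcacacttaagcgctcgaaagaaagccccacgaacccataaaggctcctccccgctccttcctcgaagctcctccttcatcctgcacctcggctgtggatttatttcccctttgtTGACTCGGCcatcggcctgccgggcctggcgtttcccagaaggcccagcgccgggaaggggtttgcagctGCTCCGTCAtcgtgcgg
PSMB10: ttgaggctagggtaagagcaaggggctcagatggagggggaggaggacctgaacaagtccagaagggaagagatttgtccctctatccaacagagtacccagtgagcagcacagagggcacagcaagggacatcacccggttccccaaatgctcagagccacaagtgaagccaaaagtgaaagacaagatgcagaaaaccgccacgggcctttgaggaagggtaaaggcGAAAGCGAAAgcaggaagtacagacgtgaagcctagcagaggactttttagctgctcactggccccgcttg
PSMD3 held TGACNNNGC on both sides of its start and a CCAAT match on the reverse strand. PSMB10 held 1 match to the ISRE core, beginning 21 bases before its start. PSMC1 and PSMC6 held no match to these letters in this window. No matches in these 4 regions overlapped. The 33 members with an entry, taken at the first start listed, are not the 33 tested subunit and chaperone rows. They include PSMC3IP and the undetected PSMB11, both with CCAAT. Of them, 7 held TGACNNNGC (21.2%, against 13.6% of 27305 genes), 3 held the ISRE core (9.09%, against 3.65%) and 17 held CCAAT (51.5%, against 35.7%). The members with TGACNNNGC were PSMB3, PSMC4, PSMD1, PSMD3, PSMD5, PSMD9 and PSMD12, whose differences ran from -0.44 to 0.53. Those with the ISRE core were PSMB10, PSMA4 and PSMB4, whose differences were 0.67, -0.32 and 0.02. PSMB1, PSMA7, PSMB7, PSMB6 and PSMD4 are not in the table.

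Beyond the subunits, 33 of 38 other genes of the pathway were tested, and 1 passed (1.57% of all tested genes): VCP, the segregase that pulls ubiquitylated proteins out of complexes for the proteasome. VCP measured 9.36, 9.49 and 9.57 in controls and 8.83, 8.84 and 8.96 in knockouts. Every knockout clone lay below every control, also in raw intensity. VCP fell 1.51-fold, with a difference of -0.59 and a standard error of 0.11 (limma adjusted p = 0.0438). The call was lost in 11 of 16 alternatives, with a limma adjusted p of up to 0.199, and the difference ran from -0.98 to -0.41 over them. Of the 33, 20 were negative and 13 positive, with a median of -0.067, against 53.8% negative and a median of -0.023 over all tested genes. At an unadjusted p under 0.05 there were 5 lower (10.3% of all tested genes) and 5 higher (10.1%), so these counts lay near the background.

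SHFM1, which encodes the small lid subunit now named SEM1, had the highest difference in the pathway list. It measured 8.78, 7.78 and 8.12 in controls and 9.23, 9.26 and 9.37 in knockouts, 2.09-fold higher (limma adjusted p = 0.0563). The controls spanned 1.00, with control 1 nearest to the knockout clones, and it passed in 6 of 16 alternatives, with a limma adjusted p of 0.00445 without control 1. ADRM1, a ubiquitin receptor of the base, was lower by -0.50 (limma adjusted p = 0.0629). NFE2L1 measured 7.01, 6.68 and 6.74 in controls and 7.46, 7.21 and 7.38 in knockouts, 1.45-fold higher (limma adjusted p = 0.0724; difference 0.54, and 0.16 with the default background fit), while its relative NFE2L2 differed by -0.52 (limma adjusted p = 0.0878). Both pairs of groups were separated. PSMG4, a chaperone of core assembly, and PSME1, an interferon-induced activator, differed by 0.74 and 0.49 (limma adjusted p = 0.0732 and 0.0933). The averaged row of PSMG4 passed the detection filter in 3 control clones and 1 knockout clone. The rows of SHFM1, ADRM1, PSME1, PSME3, PSMF1 and PSMG1 also average several probes. The other tested assembly genes, PSMG3, PAAF1, PSMG2 and PSMG1, differed by 0.48, 0.02, -0.11 and -0.33. The activators PSME2, PSME3 and PSME4 differed by 0.25, -0.02 and -0.49, and the inhibitor PSMF1 by 0.09. POMP, the maturation factor of the core, was not tested because its averaged row passed the detection filter in 0 control and 2 knockout clones (limma adjusted p = 0.319 with the filter on signal), and its groups, at 8.37 ± 0.34 and 8.69 ± 0.12 (SD, n = 3 each), overlapped.

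Several measured properties moved with these differences, and their part in the result was not tested. Proteasome genes are bright: 25 of the 34 fell in the brightest quintile of all tested genes, where the median difference of all 2629 genes was -0.11 and 21.9% were lower at an unadjusted p under 0.05. The 25 members there had a median of -0.34, 21 negative, and 14 lower at that p. After scaling to a common median the same quintile had a median of 0.074 and its 25 members -0.085, and with cyclic loess these were -0.015 and -0.23. In raw intensity the knockout clones lay wholly below the controls in 5 members (4.63% of all tested genes) and wholly above in 7 (19.8%). The 5 were PSMC1, PSMC6, PSMA1, PSMD14 and PSMD7. The 7 were PSMB3, PSMB4, PSMB6, PSMB10, PSMD3, PSMD4 and PSMD13, of which PSMB6 had a negative difference (-0.11) after normalization. Gene span also differed: over the 34 members the Spearman correlation of the difference with span was -0.36, and -0.23 over 10399 tested genes, which share the same 6 arrays. The quintile of genes with the shortest span measured 0.016, -0.11 and -0.021 in controls 1 to 3 and 0.042, 0.061 and 0.046 in knockouts, as medians relative to each gene's mean.

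The array medians of the 34 members, relative to each gene's mean over the 6 arrays, were 0.086, 0.18 and 0.14 in controls 1 to 3 and -0.11, -0.17 and -0.056 in knockout clones 1 to 3. The groups did not overlap on this measure, but neither did they over all 13145 tested genes. There the medians were 0.00070, 0.018 and 0.013 in controls 1 to 3 and -0.0079, -0.0020 and -0.010 in knockouts 1 to 3. For the ATPases the medians were 0.13, 0.32 and 0.25 against -0.14, -0.32 and -0.18, and for the beta ring they were 0.21, -0.12 and 0.14 against -0.0083, -0.067 and -0.056. Knockout 2 was thus the lowest array for members and ATPases, and the beta ring overlapped, with control 2 below every knockout clone. Control 1 minus control 2 had a median of -0.09 over the members, -0.21 over the ATPases and 0.17 over the beta ring. Over all tested genes it was -0.020. In 22 of the 34 members control 1 lay between control 2 and the knockout mean. The share over all tested genes was not taken, so this count cannot be called particular to the members.

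**Figure D3:**
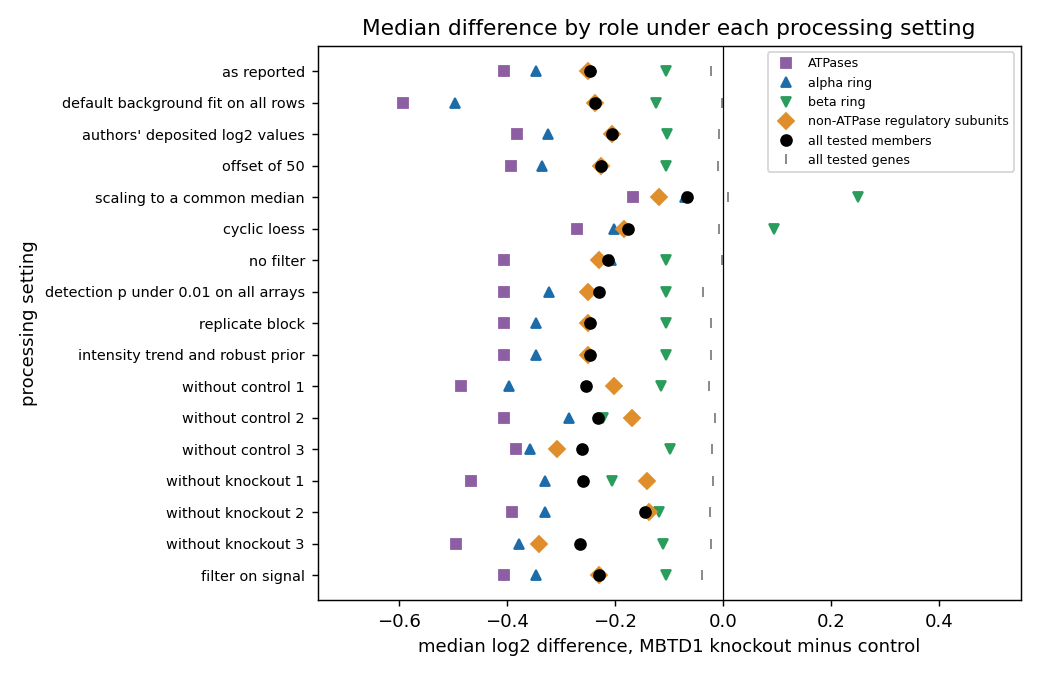
The median log2 difference of the ATPases, alpha ring, beta ring, non-ATPase subunits, all tested members and all tested genes is shown under each of 17 processing settings, 1 row per setting. The member median lies between -0.26 and -0.066, the ATPase, alpha ring and non-ATPase medians stay below 0 in all 17, and the beta ring moves above 0 with scaling to a common median and with cyclic loess.

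The sign of the member median held in 17 of 17 settings, but its size did not, running from -0.26 to -0.066. Over those settings, PSMC1 passed in 3, PSMB10 and PSMD3 in 2 each, PSMC6 in 1 and the other members in 0. Of the 34, 21 were negative in each setting that tested them, the 6 ATPases among them, and 6 were positive in each: PSMB3, PSMB10, PSMD3, PSMD4, PSMD11 and PSMD13. The other 7, PSMA2, PSMA3, PSMB1, PSMB4, PSMB6, PSMD9 and PSMC3IP, had both signs. Signs could not change with the replicate block, the trend and robust prior or the changed filters, which left each gene's difference as it was.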

How the data were processed

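The authors deposited linear mean bead intensities per gene row, not normalized and, judged by an estimated background of 81.7 to 84.2, not background-subtracted, with a detection p-value against background beads, the beads' standard error and their number, per the file headers. They also deposited log2 values, which equalled quantile-normalized log2 intensities within 4.99e-09. Both lumi and limma are named, with no version, per the submitters' processing notes.

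With limma 3.58.1 in R 4.3.3, intensities were background-corrected by normexp, with an offset of 16, then log2-transformed and quantile normalized. The background fit used 27408 rows with a detection p equal, on all arrays, to a whole number of steps (tolerance 0.001 of a step). That restriction was adopted in earlier work after the default fit had called 0 genes. Control rows (92) were left out. Testing required a detection p under 0.05 on 3 or more arrays. Groups were compared with lmFit and eBayes (2-sided, no covariates) with Benjamini-Hochberg adjustment over all 13145 genes. The number of arrays limits precision. The pipeline was tested on simulated data.

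Members and gene lists were chosen with earlier results of these data known, and the lists follow textbook roles. All members are named; every array's value is given for the catalytic PSMB5 to PSMB7, the highest and lowest difference in each role, the 3 smallest p, and any member past the threshold (here 0). From the pathway list, genes past the threshold, PSMB8, PSMB9, NFE2L1, POMP and the 3 smallest p were fixed. Array values of PSMC3, PSMC5, PSMD2, PSMD7, PSMD12 and PSMD13 were added after their values were seen. So were ADRM1, NFE2L2, and the tested assembly, activator and inhibitor genes. Columns were matched by the sample number in the descriptions.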

Additional observations from a re-analysis of the deposited data

How the results depend on the processing

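Each of the 16 alternatives changed 1 step, though the stricter detection filter (p under 0.01 on all arrays) moved both its p and its number of arrays, and the trend and robust prior went together; the filter on signal was chosen after seeing the data. The number of genes called, 207, was 0 with the default background fit (2260 at an unadjusted p under 0.05 in limma), 64 with the authors' deposited log2 values, 61 with an offset of 50, 585 after scaling to a common median, 4 without a filter, 361 with a detection p under 0.01 on all arrays and 314 with the filter on signal. Leaving out 1 array gave 0 to 577 genes, 577 without control 1, 50 without control 2, 0 without control 3 (1919 at an unadjusted p under 0.05), and 50 and 51 without knockout 2 and 3. Calls were 158 higher and 49 lower, but 553 and 32 after scaling to a common median and 249 and 39 with cyclic loess. Members called, 0 (17 at an unadjusted p under 0.05), were 2 after scaling to a common median (PSMB10 and PSMD3), 1 with the stricter detection p and 1 with the filter on signal (PSMC1 in both). Leaving out 1 array gave 0 to 4, the 4 being PSMB10, PSMC1, PSMC6 and PSMD3 without control 1. The member median, -0.25, was -0.066 after scaling to a common median and -0.18 with cyclic loess, and -0.26 to -0.14 with 1 array left out, -0.14 without knockout 2. Other pathway genes called, 1, were 0 with the default background fit or without a filter, 7 after scaling to a common median, 2 with cyclic loess, 3 with the stricter detection p, 3 with the filter on signal, and 0 to 6 with 1 array left out, 6 without control 1. With the clone number as a replicate block 122 genes, 0 members and 0 pathway genes were called; VCP lost its call there (limma adjusted p = 0.0762). Same-numbered clones correlated by 0.066, 0.015 and 0.019 in their deviations from the group means. With 3 arrays per group these values cannot show whether the numbers mark a shared preparation. Of 287 comparisons over 18 named genes, 250 kept their sign and side of the threshold, 20 came to pass, 11 no longer passed, all of them VCP, and 6 changed sign. The replicate block, trend and robust prior, and changed filters left differences unchanged, so only the side of the threshold could move there. The sign changes were PSMB6 at 0.28 after scaling to a common median and 0.095 with cyclic loess, PSMA2 (-0.13 to 0.15 with 1 array left out, positive without control 2 or knockout 3) and PSMD9 (-0.13 to 0.11, positive without control 2 or knockout 1). Except where fewer arrays or another set of tested genes shows it, the cause was not tested.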
